A study of Homo sapiens with 10 samples.

Results

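The snoRNA host genes described here are 10 genes whose introns carry small nucleolar RNAs and whose spliced RNA encodes no known protein: GAS5, SNHG1, SNHG3, SNHG5, SNHG6, SNHG12, SNHG15, SNHG16, SNHG17 and ZFAS1. They were chosen by name and matched to the Ensembl gene IDs of the deposited files, which hold 55889 genes, and all 10 had a value in all 10 libraries. The libraries came from the KOPT-K1 line, grown from a human T-cell acute lymphoblastic leukaemia. Cells were exposed for 45 minutes to 25 nM silvestrol, which blocks the translation initiation helicase eIF4A, or to DMSO, its vehicle. Silvestrol and DMSO cells each gave 2 libraries of ribosome-protected fragments (footprints) and 3 libraries of total RNA. The labels do not state that replicates were grown separately, so p-values measure the spread between libraries, which may be technical.

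Small nucleolar RNAs guide the chemical modification of ribosomal RNA and are cut out of introns after splicing. The spliced exons left behind are exported, carry short open reading frames and are read by ribosomes. A ribosome that stops upstream of an exon junction can trigger nonsense-mediated decay, which keeps many host RNAs short-lived, and because this decay needs translation, translation inhibitors are known to raise their levels. Many hosts also begin with a pyrimidine tract of the 5′ TOP type, the start shared by ribosomal protein mRNAs, whose translation follows growth signals. The comparisons below address how far the RNA and the ribosome occupancy of these hosts differed after a brief block of eIF4A.

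The start sites are shown because a pyrimidine start, where present, is the feature that would tie a host to the ribosomal protein mRNAs. RefSeq starts are shown for 8 hosts. SNHG6 and SNHG15 are not shown, and the host shares below leave them out. Each line gives 10 bases before the annotated start and 20 bases from it, on the gene's strand, 5′ to 3′. Capitals mark the longest unbroken run of C and T, the first where runs tie (as in SNHG17), and the start is base 11.
GAS5: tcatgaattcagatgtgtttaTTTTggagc
SNHG1: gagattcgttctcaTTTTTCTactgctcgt
SNHG3: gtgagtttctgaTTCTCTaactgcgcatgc
SNHG5: gcacttcggTCTTTTacgtcggccttcgcg
SNHG12: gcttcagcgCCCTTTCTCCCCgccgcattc
SNHG16: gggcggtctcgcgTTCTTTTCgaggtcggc
SNHG17: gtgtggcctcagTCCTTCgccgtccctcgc
ZFAS1: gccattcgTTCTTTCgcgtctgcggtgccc

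On build GRCh38.p14 the windows on the plus strand are chr1:28505933-28505962 for SNHG3, chr17:76557754-76557783 for SNHG16 and chr20:49278632-49278661 for ZFAS1. Those on the minus strand are chr1:173869026-173869055 for GAS5, chr11:62855866-62855895 for SNHG1, chr6:85678714-85678743 for SNHG5, chr1:28581854-28581883 for SNHG12 and chr20:38435309-38435338 for SNHG17. A run of at least 5 letters, each C or T, on the gene's strand was found in 7 of the 8 windows (87.5%), against 48.9% of 35116 windows of the same length over all genes. GAS5 was the window without one, its longest run being 4. Such a run can lie anywhere in the window, so it is not by itself a TOP start. In SNHG5, SNHG12 and ZFAS1 the marked run covers the start, which is a C. In the other windows shown the marked run begins after the start. SNHG1 also has a shorter, unmarked run of 5 that covers its start, likewise a C. Within 2 bases before to 8 bases after the start, a run of at least 4 was found in 87.5% of the host windows and 30.5% of all windows. These matches describe the annotated starts, which may differ from the starts used in KOPT-K1 cells.

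In most annotated spliced transcripts of the hosts, translation from the first ATG would end upstream of the last exon junction. GENCODE release 29 lists 138 transcripts for the 10 hosts, of which 53 are retained-intron forms and 85 are spliced. In 77 of the 85 spliced forms (90.6%) the reading frame that begins at the first ATG ends more than 50 nucleotides before the last exon junction, a layout known to mark an RNA for nonsense-mediated decay. The share was 71.4% over 23977 spliced transcripts of 11871 other non-coding genes. For the longest reading frame the shares were 52.9% in the hosts and 27.4% in the other genes. The median longest frame was 54 codons in both sets, while host transcripts had a median of 5 exons against 3. GAS5 was the most finely divided, with a median of 11 exons over its spliced forms, and ZFAS1 had the longest frame of the hosts, 117 codons. SNHG3 was the exception, since its 1 spliced form met neither version of the rule. Transcripts of 1 gene share exons, so these shares are descriptions and were not tested.

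Values are the authors' RPKM, read density scaled by gene length and library total, so each is relative to its own library. A gene had to reach a mean of 1 RPKM in both RNA and footprints to be tested, which left 10297 genes and all 10 hosts. A gene was called at a Benjamini-Hochberg adjusted p under 0.05 from limma, adjusted over all 10297. Depth came to roughly 2.03 to 2.38 M reads (silvestrol) and 1.66 to 2.27 M reads (DMSO) per footprint library, and 126.6 to 178 M (silvestrol) and 160.4 to 216.4 M (DMSO) per RNA library, by estimate. The median SD between replicates was 0.19 (silvestrol) and 0.18 (DMSO) on the log2 scale in footprints, against 0.047 and 0.039 in RNA. All 9 T-lineage markers were tested and none was called in RNA, with summed RNA levels of 1364 to 1417 RPKM after silvestrol and 1388 to 1431 RPKM in DMSO. Their summed footprints came to 1973 to 2127 RPKM after silvestrol and 2242 to 2298 RPKM in DMSO. In RNA 0 of the 9 had a positive difference (median -0.04 log2), against 52.5% of all genes. In footprints 1 of the 9 did (median -0.15 log2), against 40.5% of all genes. Of 13 markers of other cell types 12 were matched, and each lay under 1 RPKM in RNA. In bulk RNA, fewer cells with a transcript and less of it per cell cannot be told apart.

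The hosts were abundant RNAs, and their RNA levels stayed close to those of DMSO cells. No host was called in RNA in either direction, against 29 of 10297 genes called (0.282%), 28 of them higher (0.272%) and 1 lower (0.00971%). SNHG3 and SNHG12 had the largest positive differences, each 1.09-fold. SNHG16, host of SNORD1 guides, had the largest negative one, 0.945-fold. None of these passed the test. The 95% intervals of all 10 hosts together lay between 0.886-fold and 1.14-fold, so larger changes fell outside the interval of every host.

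Averaged over the 6 RNA libraries the hosts spanned 14.0-fold, between 12.3 RPKM for SNHG16 and 173 RPKM for ZFAS1. SNHG16 stood at the 53.0 percentile of tested protein-coding genes and ZFAS1 at the 97.9 percentile. In DMSO cells the order was ZFAS1, SNHG1, GAS5, SNHG15, SNHG6, SNHG5, SNHG17, SNHG3, SNHG12 and SNHG16. The ranges of neighbours in this order were separate in DMSO except for SNHG17 and SNHG3, which met at 25.8 RPKM. Levels of a single host differed between its highest and its lowest RNA library by 1.06-fold to 1.15-fold, far less than the hosts differed from each other.

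**Figure D1:**
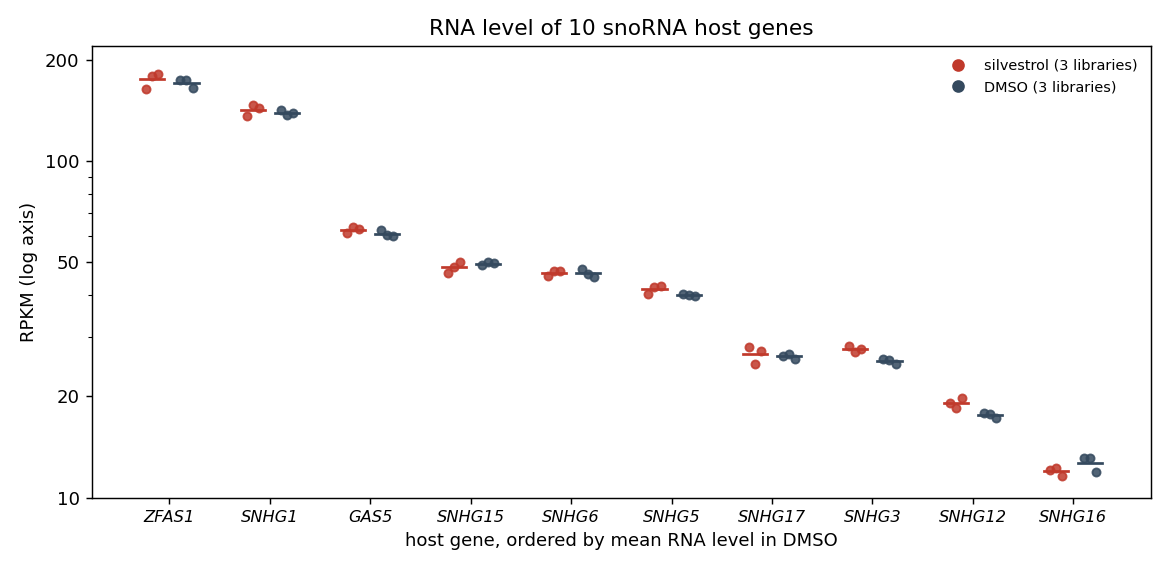
Total RNA of the 10 hosts by library, in RPKM on a log axis, with silvestrol left of DMSO for each host; points are libraries (3 per treatment) and bars are means. ZFAS1 and SNHG1 lie at 136 RPKM or more and SNHG16 at 11.6 to 13.1 RPKM, and the silvestrol and DMSO points of each host lie close together.

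SNHG3, host of the SNORA73 guides that act in ribosomal RNA processing, had 28.3, 27.1 and 27.7 RPKM after silvestrol and 25.8, 25.6 and 25.0 RPKM in DMSO. The silvestrol libraries all lay above the DMSO libraries. The difference was 0.12 log2 (SE 0.030), with an unadjusted p of 0.00237 and an adjusted p of 0.165 by limma, so it did not pass the test.

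SNHG12, host of both H/ACA and C/D guides, had 19.1, 18.5 and 19.8 RPKM after silvestrol and 17.8, 17.7 and 17.2 RPKM in DMSO. Its groups did not overlap either. The difference was 0.12 log2 (SE 0.034), with an adjusted p of 0.211 by limma.

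SNHG5, host of the SNORD50 guides, had 40.4, 42.3 and 42.5 RPKM after silvestrol and 40.3, 39.9 and 39.6 RPKM in DMSO. Here the lowest silvestrol library lay only just above the highest DMSO library. The difference was 0.06 log2 (SE 0.030), with an adjusted p of 0.576 by limma.

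These were the 3 hosts whose silvestrol libraries all lay above DMSO, and no host had them all below. Among all tested genes 8.97% lay wholly above and 3.99% wholly below. Unadjusted p fell under 0.05 for 2 hosts, SNHG3 and SNHG12, and for 950 of all genes (9.23%). Of the 10 hosts 8 had a positive difference, against 52.5% of all genes, and the median difference was 0.031 log2 over the hosts and 0.0028 over all genes.

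GAS5, named for its rise in growth-arrested cells and a host of many C/D guides, had 61.3, 63.5 and 62.8 RPKM after silvestrol and 62.4, 60.3 and 59.9 RPKM in DMSO. The groups overlapped, and the mean was 62.5 ± 1.12 RPKM after silvestrol and 60.9 ± 1.34 RPKM in DMSO (SD, n = 3 each). The difference of 0.04 log2 (95% interval -0.03 to 0.10) had an adjusted p of 0.810 by limma.

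SNHG1, host of a row of C/D guides in its introns, had 136, 147 and 144 RPKM after silvestrol and 142, 137 and 139 RPKM in DMSO. ZFAS1, host of the SNORD12 guides and antisense to ZNFX1, had 164, 179 and 182 RPKM after silvestrol and 174, 174 and 165 RPKM in DMSO. The most abundant hosts thus overlapped between treatments, each with a difference of 0.03 log2 and adjusted p of 0.900 and 0.920 by limma.

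SNHG6, host of SNORD87, had 45.5, 47.2 and 47.2 RPKM after silvestrol and 47.7, 46.3 and 45.2 RPKM in DMSO. SNHG17, host of the SNORA71 guides, had 28.0, 25.0 and 27.2 RPKM after silvestrol and 26.4, 26.7 and 25.8 RPKM in DMSO. Both overlapped, with adjusted p of 0.987 and 0.958 by limma.

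SNHG15, host of an H/ACA guide, had 46.4, 48.5 and 50.2 RPKM after silvestrol and 49.0, 50 and 49.8 RPKM in DMSO. SNHG16 had 12.1, 12.2 and 11.6 RPKM after silvestrol and 13.1, 13.1 and 11.9 RPKM in DMSO. These were the only hosts with a negative RNA difference, their groups overlapped, and the SNHG16 difference of -0.08 log2 (SE 0.042) had an adjusted p of 0.642 by limma.

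The third RNA library of each treatment stood out among the hosts. The third DMSO library was the lowest of the 6 for 5 hosts and the third silvestrol library was the highest for 4, and the mean of the hosts differed from its 6-library mean by 0.037 log2 in the third silvestrol library and by -0.045 in the third DMSO library. Leaving out any 1 RNA library kept the median difference of the hosts between 0.015 and 0.058 log2.

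**Figure D2:**
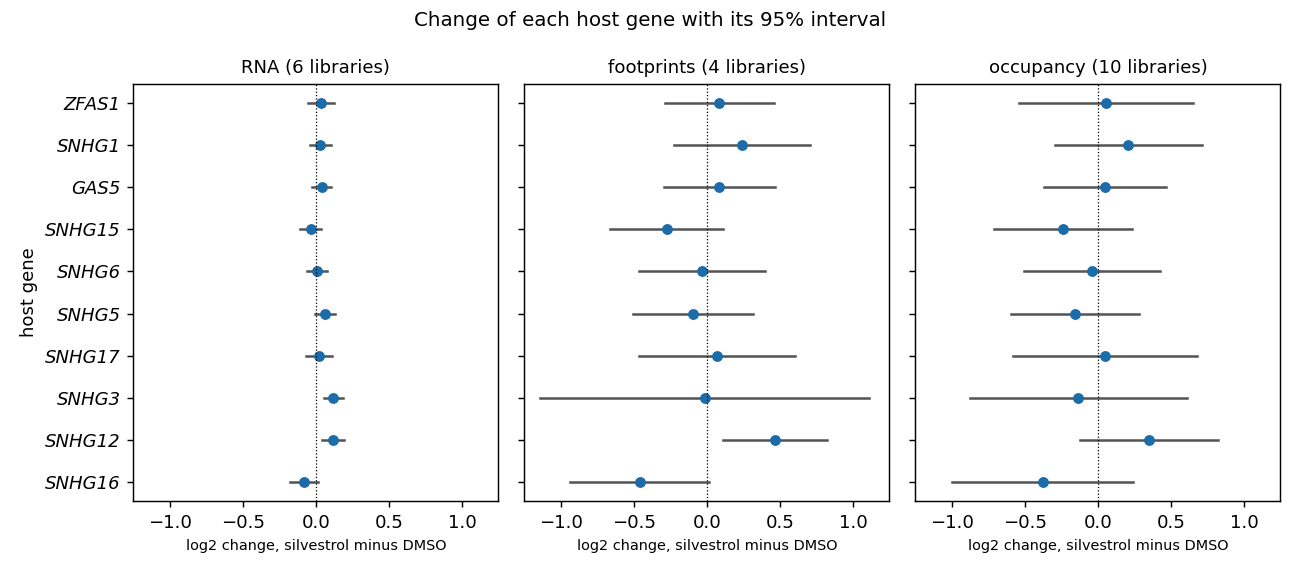
Log2 differences, silvestrol over DMSO, of RNA, footprints and ribosome occupancy for the 10 hosts; points are limma estimates and bars are 95% intervals. RNA intervals lie between -0.18 and 0.19, whereas footprint intervals reach -1.14 and 1.11 for SNHG3, and no host passed the adjusted threshold in any of them.

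Footprint reads were assigned to every host in every footprint library, most densely to SNHG1 and ZFAS1. No host was called in the footprint comparison, against 5 of 10297 genes (0.0486%), 2 higher (0.0194%) and 3 lower (0.0291%). SNHG12 had the largest positive difference, 1.38-fold, and SNHG16 the largest negative one, 0.727-fold. Precision was far lower than in RNA, with host intervals reaching from 0.454-fold to 2.16-fold, both ends set by SNHG3.

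SNHG12 had 31.1 and 30.0 RPKM of footprints after silvestrol and 23.0 and 20.9 RPKM in DMSO. Its silvestrol libraries both lay above DMSO, as they did for 13.1% of all genes. The difference was 0.47 log2 (SE 0.146), with an unadjusted p of 0.0181 and an adjusted p of 0.658 by limma.

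SNHG16 had 9.02 and 11 RPKM after silvestrol and 14.2 and 13.6 RPKM in DMSO, and SNHG15 had 24.2 and 27.2 RPKM after silvestrol and 28.8 and 33.7 RPKM in DMSO. For these hosts both silvestrol libraries lay below DMSO, as they did for 25.2% of all genes. The differences were -0.46 log2 (SE 0.195) for SNHG16 and -0.28 log2 (SE 0.158) for SNHG15, with adjusted p of 0.721 and 0.762 by limma.

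SNHG1 had 356 and 288 RPKM after silvestrol and 316 and 233 RPKM in DMSO. ZFAS1 had 316 and 270 RPKM after silvestrol and 303 and 250 RPKM in DMSO. In both hosts and both treatments library 1 held more than library 2, and the treatments overlapped.

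GAS5 had 49.2 and 39.5 RPKM of footprints after silvestrol and 42.3 and 40.8 RPKM in DMSO. SNHG5 had 58.5 and 46.1 RPKM after silvestrol and 60 and 51.3 RPKM in DMSO. The differences of these hosts, 0.08 and -0.09 log2, had adjusted p of 0.920 and 0.919 by limma.

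SNHG6 had 43.5 and 42.3 RPKM after silvestrol and 51.1 and 37.8 RPKM in DMSO. SNHG17 had 21.8 and 15.0 RPKM after silvestrol and 17.4 and 17 RPKM in DMSO. Both overlapped between treatments, with the wider spread in DMSO for SNHG6 and in silvestrol for SNHG17.

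SNHG3 had 4.84 and 10.5 RPKM of footprints after silvestrol and 5.29 and 9.86 RPKM in DMSO. Library 2 exceeded library 1 by 1.04 log2 after silvestrol and by 0.84 log2 in DMSO, so the gap between libraries of 1 treatment was far wider than the gap between treatments. By library number the treatments differed by -0.12 log2 in number 1 and 0.09 in number 2. The main fit did not use the number and counted the gap between libraries as spread. SNHG3 footprints amounted to an estimated 47.0 to 87.4 reads per library, the fewest of the hosts, while those of ZFAS1 came to an estimated 931 to 1680. The part of read number in the SNHG3 spread was not tested.

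In all, 3 of the 10 hosts had footprint groups that did not overlap, against 38.3% of all genes. Of the 10 hosts 5 had a positive footprint difference, against 40.5% of all genes. The median was 0.028 log2 over the hosts and -0.07 over all genes. Unadjusted p fell under 0.05 for SNHG12 alone, and for 719 of all genes (6.98%).

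**Figure D3:**
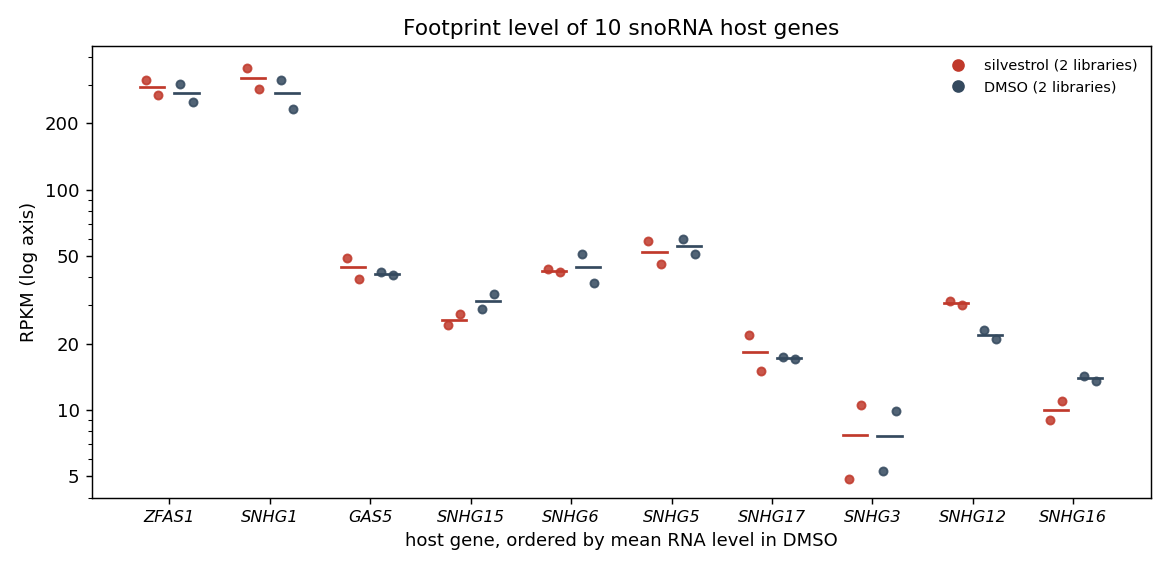
Footprints of the 10 hosts by library, in RPKM on a log axis, with silvestrol left of DMSO for each host; points are libraries (2 per treatment) and bars are means. SNHG1 and ZFAS1 lie highest, at 233 RPKM or more, and the libraries of SNHG3 lie apart in both treatments, at 4.84 and 10.5 RPKM after silvestrol and 5.29 and 9.86 RPKM in DMSO.

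Ribosome occupancy, the footprint level divided by the RNA level, ranged widely among the hosts. Its log2 ratio was taken between mean RPKM values, each plus 0.5, its SD joins the log2 SDs of footprints and RNA, and linear ratios are of the means themselves. SNHG1 had the highest occupancy, with a ratio of 2.26 after silvestrol and 1.97 in DMSO, at the 98.9 and 98.0 percentiles of 9017 protein-coding genes. SNHG3 had the lowest, with 0.277 after silvestrol and 0.297 in DMSO, at the 6.34 and 6.38 percentiles. The ratio is on a relative scale, because each assay is scaled to its own library.

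ZFAS1 came next to SNHG1, with a log2 ratio of 0.74 ± 0.18 after silvestrol and 0.69 ± 0.20 in DMSO (SD, n = 2 footprint and 3 RNA libraries each). SNHG12 followed after silvestrol, with 0.66 ± 0.060, against 0.31 ± 0.099 in DMSO. SNHG5 had 0.32 ± 0.24 after silvestrol and 0.47 ± 0.16 in DMSO. SNHG1, ZFAS1, SNHG12 and SNHG5 all lay at or above the 86.9 percentile of protein-coding genes in both treatments. Among 572 other tested non-coding genes these hosts ranked lower. There SNHG1 lay at the 87.1 percentile after silvestrol and 83.7 in DMSO, and ZFAS1 at 78.3 and 77.3. SNHG12 lay at 77.3 after silvestrol and 62.4 in DMSO, and SNHG5 at 68.4 and 67.5.

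SNHG16 had a log2 ratio of -0.25 ± 0.20 after silvestrol and 0.13 ± 0.088 in DMSO, and SNHG6 had -0.12 ± 0.041 after silvestrol and -0.06 ± 0.31 in DMSO. GAS5 had -0.49 ± 0.22 after silvestrol and -0.55 ± 0.048 in DMSO. SNHG17 had -0.53 ± 0.38 after silvestrol and -0.60 ± 0.034 in DMSO. GAS5 and SNHG17 thus lay near the protein-coding median, which was -0.51 after silvestrol and -0.43 in DMSO.

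SNHG15 had a log2 ratio of -0.90 ± 0.13 after silvestrol and -0.66 ± 0.16 in DMSO, and SNHG3 had -1.79 ± 0.74 after silvestrol and -1.69 ± 0.59 in DMSO. In DMSO the ratios of the hosts with 0.5 added to each mean spanned 6.32-fold, well beyond the SD of any host. The order there was SNHG1, ZFAS1, SNHG5, SNHG12, SNHG16, SNHG6, GAS5, SNHG17, SNHG15 and SNHG3. Neighbours in it differed by more than the sum of their SDs only between SNHG12 and SNHG16, between SNHG6 and GAS5 and between SNHG15 and SNHG3.

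The median log2 ratio of the hosts was -0.18 after silvestrol and 0.03 in DMSO. For 572 other tested non-coding genes it was -0.20 after silvestrol and -0.07 in DMSO. Of the hosts 7 lay above the protein-coding median after silvestrol and 6 in DMSO.

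The change in occupancy was called for no host, against 11 of 10297 genes (0.107%), 2 higher (0.0194%) and 9 lower (0.0874%). SNHG12 had the largest positive change, 0.35 log2 (SE 0.218, 95% interval -0.12 to 0.82), with an adjusted p of 0.781 by limma. SNHG16 had the largest negative change, -0.38 log2 (SE 0.286, 95% interval -1.0 to 0.24), with an adjusted p of 0.839 by limma. Host intervals reached from 0.50-fold to 1.77-fold, so changes within that range could not be resolved for every host. This fit estimates the spread of a gene from both assays together, with weights per assay. For SNHG3 the SE was 0.341 in occupancy, under the 0.450 of its footprints alone, so its occupancy interval may be too narrow. No host had an unadjusted p under 0.05, against 760 of all genes (7.38%), and the median change was 0.0020 log2 over the hosts and -0.08 over all genes.

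**Figure D4:**
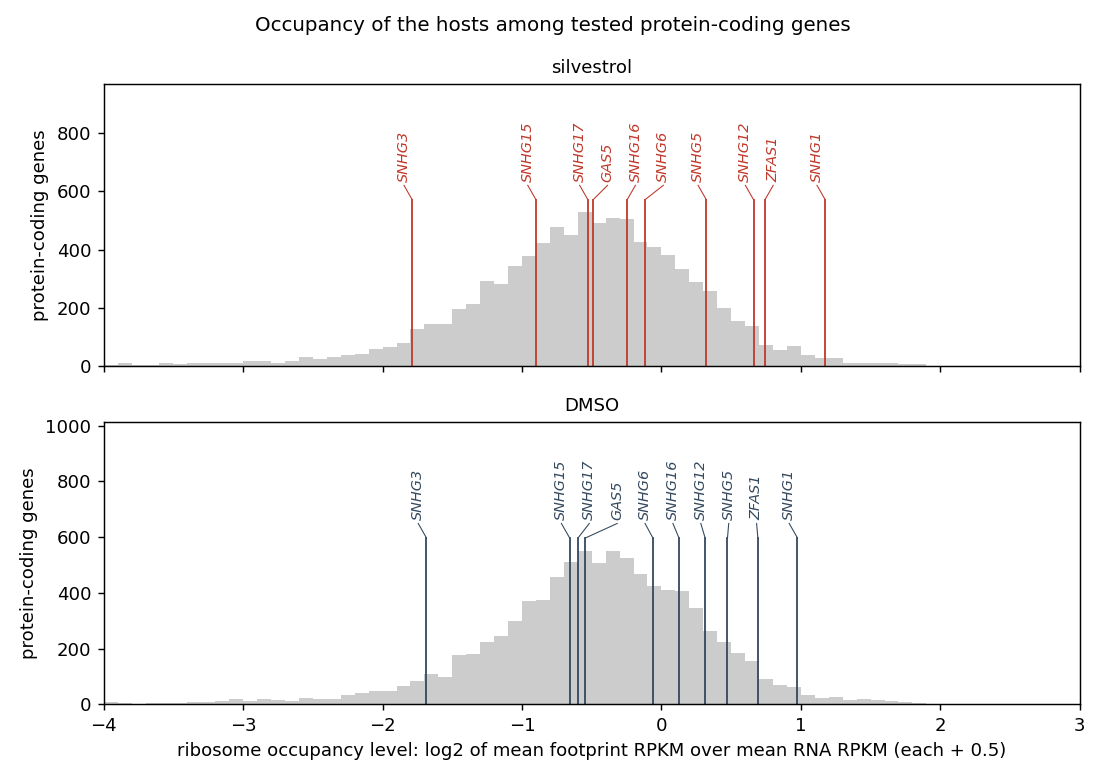
Ribosome occupancy of the 10 hosts (vertical lines) over a grey histogram of the 9017 tested protein-coding genes, silvestrol above and DMSO under it; the horizontal axis is the log2 ratio of mean footprint to mean RNA RPKM, each plus 0.5 (the far tails of the histogram are not drawn), and the vertical axis counts genes. SNHG1 is highest at 1.18 after silvestrol and 0.98 in DMSO, and SNHG3 lowest at -1.79 and -1.69.

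Related genes give the setting for these values. Of 13 tested members of a list of other non-coding hosts none was called, and their median RNA difference was 0.06 log2, with 11 of 13 positive. Without silvestrol RNA library 1, 1 of these hosts was called higher in RNA, and without silvestrol footprint library 1, 1 was called lower in occupancy. Among 46 tested protein-coding hosts none was called, with a median of 0.0083. None of 21 tested decay factors was called (median 0.0093), nor any of 22 tested protein-coding transcripts known as decay targets (median -0.02). None of 17 tested proteins of the snoRNA particles was called in RNA (median 0.01), none of 58 ribosomal protein and other TOP mRNAs (median 0.02) and none of 7 tested long non-coding RNAs without a snoRNA (median 0.0075). Of the TOP mRNAs 1 was called higher in RNA without silvestrol RNA library 2.

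No gene of these lists was called in footprints. In occupancy, RPLP1, a stalk protein of the large ribosomal subunit, was the only one called, lower by a log2 difference of -1.13 (SE 0.160, adjusted p = 0.0193 by limma), and it was named after its value was seen. The TOP mRNAs had 0 lower calls in occupancy without footprint library 1 or 2 of DMSO or footprint library 2 of silvestrol and with plain eBayes, 2 with no filter, and 11 lower and 2 higher with 1 spread for both assays. Their median log2 ratio of footprint to RNA was -2.83 after silvestrol and -2.81 in DMSO, against host medians of -0.18 after silvestrol and 0.03 in DMSO, and that difference in level was not tested. Ribosomal protein genes have near-identical pseudogenes that can share their reads, so their values are uncertain.

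Short-lived mRNAs were the only list with calls in RNA. Of 27 tested, 2 rose in RNA and none fell, with a median of 0.06. MYC, a transcription factor with an unstable mRNA, had 112, 98 and 98.7 RPKM after silvestrol and 82.3, 77.7 and 73.8 RPKM in DMSO, a rise of 0.40 log2 (SE 0.058, adjusted p = 0.0451 by limma). JUNB, an AP-1 transcription factor, had 34.1, 32 and 33.6 RPKM after silvestrol and 26.5, 28.7 and 27.4 RPKM in DMSO, a rise of 0.27 log2 (SE 0.037, adjusted p = 0.0226 by limma). Each call was lost in several alternative fits, with adjusted p reaching 0.471 for MYC and 0.381 for JUNB with no filter on low values. MYC lost its call without any of DMSO libraries 1 to 3 or silvestrol libraries 2 and 3, with adjusted p of 0.0641 to 0.196, and JUNB without DMSO library 1, DMSO library 3 or silvestrol library 3, with 0.0890 to 0.112. Both differences were larger than that of any host.

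The mean RNA profile of the hosts over the libraries was nearly flat. The 5 genes most like their mean over the 6 RNA libraries were GABARAPL2, TRAPPC2L, ABCF2, AJUBA and PCBD1, with root mean square distances of 0.0046 to 0.0082 log2. The hosts themselves lay 0.016 to 0.071 from that mean, and the median over all tested genes was 0.051.

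Footprint-sized fragments also came from the snoRNAs inside the hosts, which are not translated. GENCODE release 29 places 28 snoRNA genes in 9 of the hosts, 19 of which share bases with an annotated host exon, and 11 had a row in the files by ID. GAS5 has none in that release, whereas RefSeq lists 11 in GAS5 and 41 in all hosts. The RefSeq count took gene bounds without strand, while the GENCODE count required the strand of the host. SNORA71D, in SNHG17, had 888 and 613 RPKM in footprint libraries after silvestrol and 586 and 409 RPKM in DMSO. Its mean was 624 RPKM in footprint libraries and 0.933 RPKM in RNA.

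SNORA73B, in SNHG3, had 683 and 590 RPKM in footprint libraries after silvestrol and 515 and 245 RPKM in DMSO. SNORD1B, in SNHG16, had 275 and 304 RPKM after silvestrol and 210 and 251 RPKM in DMSO. SNORD12C, in ZFAS1, had 227 and 82.8 RPKM after silvestrol and 149 and 40.6 RPKM in DMSO. SNHG17, SNHG3 and SNHG16 themselves averaged 17.8, 7.62 and 12 RPKM in footprints, so in these the leading nested snoRNA lay far above the host. ZFAS1, at 285 RPKM in footprints, lay above its SNORD12C, which averaged 125 RPKM.

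SNORD99, in SNHG12, had 0 RPKM in both silvestrol footprint libraries and 0 and 8.13 RPKM in DMSO. SNORD87, in SNHG6, lies wholly inside annotated host exons and is listed at 0 in every library. SNHG12 averaged 26.2 RPKM in footprints and lay above SNORD99. SNHG6 averaged 43.7 RPKM in footprints. It is not ranked against SNORD87, because whether reads of SNORD87 were counted to the host was not tested. In SNHG1 all 7 nested snoRNA genes of GENCODE release 29 share bases with host exons, 576 in all, and none of them had a row. Whether snoRNA fragments were counted to the hosts, and their part in the host footprints, was not tested.

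**Figure D5:**
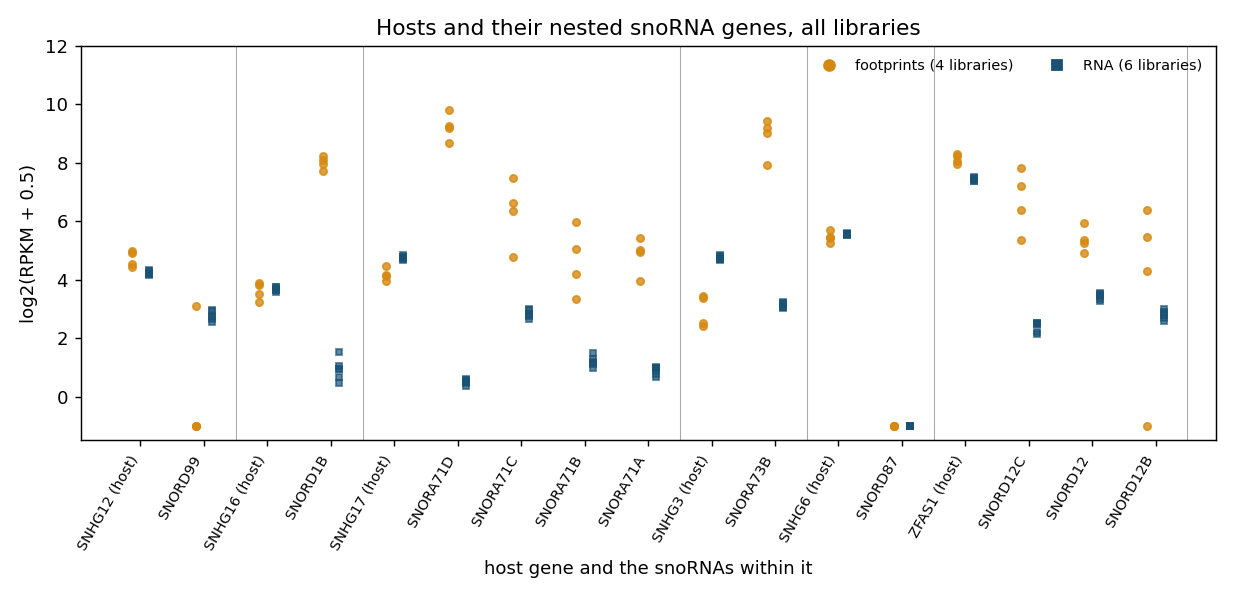
Values of 6 hosts and of the 11 nested snoRNA genes with a row, as log2(RPKM + 0.5); circles are the 4 footprint libraries and squares the 6 RNA libraries, treatments together. SNORA71D, SNORA73B and SNORD1B average 624, 508 and 260 RPKM in footprint libraries and 0.933, 8.26 and 1.45 RPKM in RNA, while host values in the 2 assays lie much nearer each other.

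In 6 hosts annotated exons share bases with another gene, and the sources used here do not say whether counting used strand. SNHG6 shares 365 of its 1247 exon bases with MCMDC2 on the opposite strand, and SNHG16 shares 1639 of 5362 with a gene on the opposite strand. ZFAS1 shares 249 bases with ZNFX1 on the opposite strand, and GAS5 shares 42 with GAS5-AS1, also opposite. SNHG3 shares 242 bases with RCC1 on the same strand, and SNHG12 shares 8 with TRNAU1AP on the opposite one. Values of these hosts are uncertain to that extent, and the build of this annotation differs from the authors' hg19.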

How the data were processed

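Total RNA and footprint libraries were deposited by the authors as 1 table each of RPKM values per Ensembl gene, per the file headers. Per the submitters' processing notes, STAR and hg19 were used. Not given in the sources used here are the counting tool, annotation and strand setting. A name table matched 49395 IDs, GENCODE release 29 named 267 more, and 6227 had no name. GENCODE 29 and RefSeq (GRCh38.p14) served for names, types, lengths, overlaps and sequences. GENCODE was matched to the files by ID, and RefSeq by gene symbol.

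Values were taken as log2(RPKM + 0.5), which understates differences of low genes. Genes that averaged 1 RPKM or more in RNA and in footprints were fitted in R 4.3.3 with limma 3.58.1 (trend and robust eBayes, two-sided tests, Benjamini-Hochberg adjustment). RNA and footprints were fitted apart, and occupancy as their interaction over 10 libraries with weights estimated per assay. Depth was estimated from the value of 1 read and GENCODE 29 exon lengths, so it is rough. The fits were also run on simulated data with known changes and a fixed added spread per assay. That run does not show how they perform at the spread of a single host. Alternatives covered pseudocount, filter, scaling, variance model, replicate block and single libraries left out.

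Named genes are the hosts, called genes of each list in RNA (at most 4), the 5 genes nearest the mean host profile, and the snoRNA highest in footprints in each host. Members and lists were chosen with earlier results of these data known. Groups came from sample titles. Over all tested genes, same-numbered libraries deviated with correlations of -0.33 to 0.15, so the numbers were not taken as pairs in the main fits. The hosts alone looked otherwise in footprints. Except in SNHG16, library 2 differed from library 1 in the same direction in both treatments. Results with the number as a block are given below.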

Additional observations from a re-analysis of the deposited data

How the results depend on the processing

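No host was called under any of the 16 alternatives in RNA, 13 in footprints or 20 in occupancy, with adjusted p by limma from 0.134 upward in RNA, 0.522 in footprints and 0.0575 in occupancy (SNHG12 with 1 spread for both assays). With the replicate block, 0 hosts were called, and all tested genes called were 57 in RNA, 1 in footprints and 13 in occupancy, against 29, 5 and 11 without it. RNA calls over all genes came to 0 with no filter, 4 with plain eBayes, 5 with the filter on RNA only, 0 without DMSO library 1 or 3, 5 without DMSO library 2, 1 without silvestrol library 3 and 31 or 35 without silvestrol library 1 or 2. Footprint calls came to 2 with a pseudocount of 0.1 or a mean of at least 5 RPKM, 0 with no filter, 8 with TMM or quantile scaling, 1 with plain eBayes and 0 with any library left out. Occupancy calls came to 271 with no filter, 6 with plain eBayes, 545 with 1 spread and, with a footprint library left out, 44 and 31 (silvestrol 1 and 2) and 21 and 14 (DMSO 1 and 2). With 1 spread, occupancy calls among the lists were 4 higher and 3 lower of the protein-coding hosts, 1 lower of the other non-coding hosts, 1 higher of the decay factors and 4 lower of the short-lived mRNAs. With no filter they were 2 higher and 1 lower of the protein-coding hosts and 1 lower of the short-lived mRNAs, and with quantile scaling 1 higher of the protein-coding hosts. Of the TOP mRNAs 1 was called higher in RNA with the replicate block or a mean of at least 5 RPKM. MYC stayed called in 5 of 16 alternatives and JUNB in 10. Some host signs turned, none of them of a called difference. With median, TMM and quantile scaling the footprint differences became 0.035, 0.059 and 0.041 for SNHG3 and 0.019, 0.045 and 0.013 for SNHG6, and the occupancy change of SNHG6 became 0.026, 0.043 and 0.0016. The RNA difference of SNHG6 became -0.0063 with median scaling. Leaving out a library gave RNA ranges of -0.011 to 0.027 for SNHG6 and -0.012 to 0.068 for SNHG17. Footprint ranges were -0.072 to 0.24 for GAS5, -0.54 to 0.51 for SNHG3, -0.26 to 0.076 for SNHG5, -0.25 to 0.18 for SNHG6, -0.19 to 0.33 for SNHG17 and -0.053 to 0.22 for ZFAS1. Occupancy ranges were -0.11 to 0.20 for GAS5, -0.011 to 0.43 for SNHG1, -0.66 to 0.39 for SNHG3, -0.33 to 0.013 for SNHG5, -0.26 to 0.17 for SNHG6, -0.21 to 0.31 for SNHG17 and -0.085 to 0.19 for ZFAS1. The causes were not tested. SNHG3, with an estimated 47.0 to 87.4 footprint reads, had an interval of 0.454-fold to 2.16-fold, and the part of depth in it was not tested.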

Other observations

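Several non-coding snoRNA hosts outside the 10 had wider values than the members. SNHG25, host of a C/D guide, had 757 and 751 RPKM of footprints after silvestrol and 559 and 494 RPKM in DMSO, on RNA of 25.6, 28.9 and 29 RPKM after silvestrol and 24.7, 25.2 and 23.8 RPKM in DMSO. Its log2 ratio of footprint to RNA was 4.74 after silvestrol and 4.39 in DMSO, above SNHG1. The part of snoRNA fragments in the SNHG25 footprints was not tested, so the ratio may not measure ribosomes. The RNA difference of SNHG25, 0.17 log2, had an adjusted p of 0.197 by limma. SNHG19 had 71.8, 71.7 and 73.1 RPKM of RNA after silvestrol and 65.2, 68.5 and 67.5 RPKM in DMSO, a difference of 0.11 log2 with an adjusted p of 0.189. Its footprints were 40.6 and 69 RPKM after silvestrol and 117 and 70.4 RPKM in DMSO. SNHG10 had 1.51 and 0.505 RPKM of footprints after silvestrol and 4.08 and 2.78 RPKM in DMSO, with an adjusted p of 0.660. None of these passed the test, and they were chosen after their values were seen.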
